A study of Homo sapiens with 6 samples.

Results

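The genes described here are 38 enzymes of nucleotide metabolism and the folate cycle, out of 57819 genes in the table, chosen by name: purine and pyrimidine synthesis, deoxynucleotide synthesis, salvage and the folate enzymes that feed them. All 38 were found in the table under those names. RNA came from IMR90 ER:Ras cells, human lung fibroblasts carrying oncogenic Ras as an estrogen-receptor fusion. With this fusion, 4-hydroxytamoxifen (4OHT) switches Ras on and the cells enter senescence. Every library came from cells given 200 nM 4OHT for 3 days. The control group (n = 3) received a scrambled siRNA (siSCR) and the knockdown group (n = 3) an siRNA, labelled si1, that targets sin-lncRNA, a long noncoding RNA. The table's knockdown columns are named si1.3, an ending that the labels do not explain. As every knockdown library carries the same siRNA name, loss of the target and any other effect of that siRNA cannot be told apart. Cells without 4OHT were not analysed here, so the values compare 2 groups of Ras-expressing cells and do not show what Ras itself did to these genes. The labels do not say whether replicates were separate cultures, and p-values then measure only the spread between these libraries.

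Nucleotides are built around phosphoribosyl pyrophosphate (PRPP). Purines are assembled on it step by step to inosine monophosphate (IMP), which is turned into AMP or GMP, and pyrimidines are made as a ring that is then joined to PRPP. Tetrahydrofolate carries the one-carbon units that the purine ring and thymidylate need, and ribonucleotide reductase turns ribonucleotides into the deoxynucleotides of DNA. Salvage enzymes recycle free bases and nucleosides. In cells made senescent by Ras, loss of deoxynucleotides through repression of the reductase subunit RRM2 is a known feature, and the transcription factors MYC and E2F are known activators of many of these genes.

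Libraries held 30271192 to 50913672 reads in genes in controls and 22117324 to 27882280 in knockdowns, so every knockdown library was the shallower. A count of 0 allowed up to 3 reads, or 0.0596 to 0.134 CPM, for counting error only. CPM was taken from recovered reads and the effective library size, so that libraries of unequal depth share 1 scale. The target fell as labelled: sin-lncRNA was at 3.70, 4.73 and 4.09 CPM in controls and 0.493, 0.640 and 0.534 CPM in knockdowns. All 10 fibroblast markers examined were present, with a summed level of 15318 to 16498 CPM in controls and 10853 to 11275 CPM in knockdowns. Most of that drop was in COL1A1 (log2 fold change -0.88) and COL1A2 (-0.77): of the 10 markers 5 fell and 4 rose in limma, the latter COL3A1 (0.38), THY1 (0.19), LUM (0.68) and FAP (0.33). None of the 6 epithelial and 5 blood markers reached 1 CPM in any library (KRT5 and HBB were at 0 in all libraries), with summed levels of 0.314 to 0.533 and 0.0896 to 0.356 CPM. The 3 endothelial markers found summed to 6.93 to 7.87 CPM in controls and 7.80 to 8.71 CPM in knockdowns. The part of any other cell type in the results below was not tested. In bulk RNA, fewer cells of a kind and less RNA per cell cannot be told apart.

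Most of the enzymes were lower in the knockdown group. Of the 38 genes, 37 passed the filter of a mean of at least 10 normalized reads; the exception, NME2, was listed at 0 reads throughout. Among these 37, 24 fell and 2 rose (limma, Benjamini-Hochberg adjusted p under 0.05 over 19048 genes), and 11 did not pass. Log2 change below stands for log2 fold change of knockdown against control. The share that fell was 64.9%, against 23.5% of all genes tested and 26.4% of the 13002 protein-coding ones. The share that rose was 5.41%, against 17.5% of all genes, and 41.0% of all genes changed in either direction. The median log2 fold change was -0.29, against -0.04 for all genes, and values ran from -1.33 for IMPDH1 to 0.61 for TYMS. In 27 of the 37 the 3 knockdown libraries all lay below the 3 controls, which 28.5% of all genes did, and in 3 they lay above, as 22.6% did. Most changes were modest: 11 of the falls (29.7% of the 37) reached a log2 change of -0.5, which 7.65% of all genes did, and 1 rise reached 0.5, against 6.22%. Among protein-coding genes 48.6% changed and 22.2% rose, 30.5% had all knockdown libraries below and 27.1% above the controls, and 8.24% fell and 7.21% rose by at least 0.5. Summed over the 38 genes, the level was 1707, 1794 and 1807 CPM in controls and 1398, 1388 and 1408 CPM in knockdowns, or 79.0% of control.

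**Figure D1:**
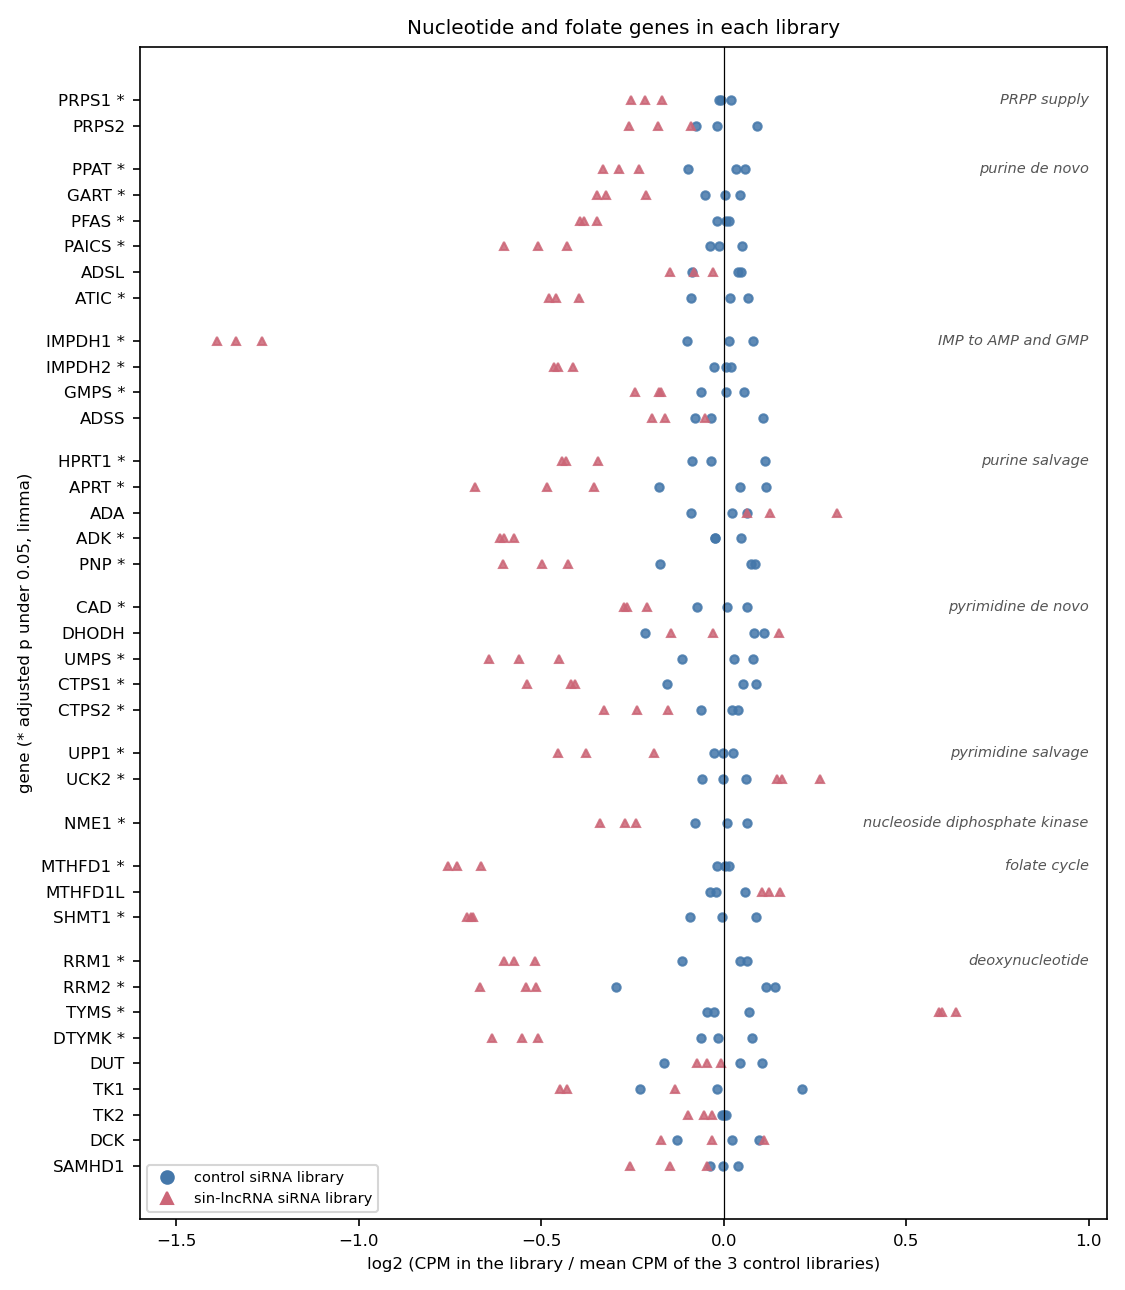
Level of each of the 37 tested genes in each library, as log2 of its CPM over the mean CPM of the 3 controls (x axis), with genes grouped by role (y axis); circles are control and triangles knockdown libraries, and an asterisk marks an adjusted p under 0.05. Triangles lie left of all circles for 27 genes and right of all circles for 3, with IMPDH1 farthest left and TYMS farthest right.

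PRPP synthetase makes the common precursor. PRPS1 was at 58.3, 59.5 and 58.1 CPM in controls and 49.2, 50.5 and 52.1 CPM in knockdowns, so its groups did not overlap. Its log2 fold change was -0.21 (SE 0.05; limma, adjusted p = 0.0041). The related isoform PRPS2 had a log2 change of -0.18 (SE 0.07) and did not pass (limma, adjusted p = 0.065), although its groups also did not overlap.

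Of the 6 enzymes that build IMP from PRPP, 5 fell (83.3%, against 23.5% of all genes tested) and ADSL did not pass. PPAT, which commits PRPP to the purine route, was at 27.0, 29.6 and 30.1 CPM in controls and 23.7, 23.0 and 24.6 CPM in knockdowns. All 3 knockdown libraries were below all controls, with a log2 change of -0.28 (SE 0.06; limma, adjusted p = 0.0046). PAICS, a bifunctional enzyme of the middle of the route, went from 132 ± 4.04 to 92.7 ± 5.54 CPM (SD, n = 3), which was -0.51 in log2 (SE 0.05; limma, adjusted p = 2.6e-05). ATIC, which closes the ring with a folate-borne carbon, went from 103 ± 5.63 to 75.8 ± 2.18 CPM (SD, n = 3), a log2 change of -0.44. GART, the trifunctional enzyme that also uses folate, had -0.29, and PFAS, the amidotransferase between the GART steps, had -0.37. ADSL, which splits off fumarate both on the way to IMP and on the way to AMP, had a log2 change of -0.09 (SE 0.05; limma, adjusted p = 0.24). ADSL shares 19873 bases of its locus with SGSM3 on the same strand. GART overlaps SON, and PFAS overlaps CTC1, on the opposite strand over 874 and 427 bases, so some of their reads are uncertain.

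IMP dehydrogenase, the pace-setting step towards GMP, held the largest fall of the set. IMPDH1 (ENSG00000106348.12, chromosome 7, 128032331 to 128050306 in the table's coordinates) was at 73.2, 67.7 and 76.7 CPM in controls and 27.7, 30.2 and 28.7 CPM in knockdowns. Every knockdown library was far below the lowest control, and the log2 fold change was -1.33 (SE 0.06; limma, adjusted p = 1.1e-07), or 39.9% of control. IMPDH2, the isoform tied to proliferation, was at 136, 140.1 and 139 CPM in controls and 100.2, 101 and 104 CPM in knockdowns. It also fell, with non-overlapping groups and a log2 change of -0.44 (SE 0.04; limma, adjusted p = 1.3e-05). Per kilobase of exon in GENCODE 29, IMPDH2 was the most abundant of the set in controls, at 49.9 CPM per kb, and IMPDH1 went from 19.8 to 7.89 CPM per kb.

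The other enzymes leading from IMP had smaller values. GMPS, which aminates the product to GMP, had a log2 change of -0.20 (SE 0.05; limma, adjusted p = 0.0089). Without control replicate 3 the call was lost (adjusted p in limma, 0.056), and with a trend in GC content and transcript length removed the value was -0.32. ADSS, which starts the branch to AMP, did not pass, at -0.13 (SE 0.06; limma, adjusted p = 0.11).

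In purine salvage 4 of 5 genes fell (80.0%, against 23.5% of all genes tested). HPRT1, which returns hypoxanthine and guanine to nucleotides, was at 16.0, 16.6 and 18.4 CPM in controls and 13.4, 12.6 and 12.5 CPM in knockdowns. The groups did not overlap, and the log2 fold change was -0.40 (SE 0.07; limma, adjusted p = 0.0016). ADK, which phosphorylates adenosine, was at 33.1, 33.1 and 34.8 CPM against 22.2, 22.6 and 22.0 CPM. Its knockdown libraries were close to each other and far below the controls, with a log2 change of -0.60 (SE 0.05; limma, adjusted p = 1.2e-05). PNP, which cleaves inosine and guanosine to free bases, had a log2 change of -0.50, as did APRT, which salvages adenine. The APRT value was -0.26 with the GC and length trend removed (adjusted p in limma, 0.0006). ADA, which deaminates adenosine, was low, at 2.90 ± 0.158 and 3.26 ± 0.292 CPM (SD, n = 3), and did not pass (log2 fold change 0.17, SE 0.12). It rests on 74 to 137 reads per library, and its locus overlaps PKIG on the opposite strand over 4726 bases.

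In pyrimidine synthesis 4 of 5 genes fell (80.0%, against 23.5% of all genes tested). CAD, the trifunctional enzyme that starts the ring, was at 86.1, 94.7 and 91.2 CPM in controls and 75.0, 75.5 and 78.3 CPM in knockdowns. The groups did not overlap and the log2 fold change was -0.25 (SE 0.05; limma, adjusted p = 0.0022). UMPS, which makes UMP, went from 26.4 ± 1.83 to 18.0 ± 1.21 CPM (SD, n = 3), a log2 change of -0.55. CTPS1 and CTPS2, which aminate UTP to CTP, had log2 fold changes of -0.45 (SE 0.07) and -0.23 (SE 0.07). CTPS2 passed with an adjusted p of 0.021 in limma, but not when control replicate 2 (0.053), control 3 (0.089) or knockdown 2 (0.078) was left out. DHODH, the mitochondrial enzyme of the route, had 4.14 to 5.19 CPM in controls and 4.35 to 5.34 CPM in knockdowns and its groups overlapped, with a log2 change of 0.00 (SE 0.12).

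The members of pyrimidine salvage moved in opposite directions. UPP1, which cleaves uridine, fell from 41.3 ± 0.773 to 32.7 ± 3.10 CPM (SD, n = 3), a log2 change of -0.34 (SE 0.07; limma, adjusted p = 0.0023). UCK2, a uridine and cytidine kinase, was at 56.2, 61.1 and 58.5 CPM in controls and 70.4, 64.8 and 65.4 CPM in knockdowns. Here the knockdown libraries were all above the controls, and the log2 fold change was 0.19 (SE 0.05; limma, adjusted p = 0.015). That call was lost without control replicate 3 (adjusted p in limma, 0.054), without knockdown replicate 1 (0.051), with untrended eBayes (0.058) and with the replicate number as a block (0.053). UCK2 overlaps TMCO1 on the opposite strand over 225 bases.

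NME1 and NME2 encode the main nucleoside diphosphate kinases, which phosphorylate diphosphates of every base, and the table shows only NME1. NME1 went from 107 ± 5.36 to 88.0 ± 3.06 CPM (SD, n = 3), a log2 change of -0.28 (SE 0.05; limma, adjusted p = 0.0012). The row named NME2 (ENSG00000011052.17) had 0 reads in all 6 libraries. In GENCODE 29 that gene ID carries the name of the read-through gene NME1-NME2, and all 1241 of its exon bases lie in exons of another listed gene, 638 in NME1 and 603 in the row named NME1-NME2 (ENSG00000243678.7). That row in turn had 32 to 108 reads per library, while the pseudogene NME2P1 on chromosome 12 had 110 to 122 CPM in controls and 94.1 to 105 CPM in knockdowns (log2 fold change -0.24, SE 0.06; limma, adjusted p = 0.0054). Reads of NME2 itself can therefore not be read from these rows, and those of NME1 are uncertain.

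Both cytosolic folate enzymes of the set fell, as 23.5% of all genes tested did, and the mitochondrial one did not pass. MTHFD1 (ENSG00000100714.11, chromosome 14, 64854749 to 64926722), the trifunctional cytosolic enzyme that makes formyl-tetrahydrofolate for purines and methylene-tetrahydrofolate for thymidylate, was at 49.5, 50.6 and 50.3 CPM in controls and 31.6, 29.7 and 30.2 CPM in knockdowns. Both groups were tight and far apart, with a log2 change of -0.72 (SE 0.05; limma, adjusted p = 2e-06). SHMT1, the cytosolic enzyme that takes a carbon from serine, was at 5.23, 5.93 and 5.56 CPM in controls and 3.45, 3.46 and 3.42 CPM in knockdowns. On 77 to 280 reads per library its groups were again apart, with a log2 change of -0.69 (SE 0.10; limma, adjusted p = 0.00036).

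MTHFD1L, which releases formate from mitochondria, was at 53.8, 57.5 and 54.5 CPM in controls and 60.2, 59.4 and 61.5 CPM in knockdowns. The knockdown libraries lay above the controls by a small step, and the gene just missed the threshold (log2 fold change 0.13, SE 0.05; limma, adjusted p = 0.053), passing it in 9 of 20 other fits. A pseudogene inside its locus on the same strand, RP1-292B18.1, held about as many reads, at 47.9 to 58.1 CPM in controls and 43.6 to 47.0 CPM in knockdowns. MTHFD1 overlaps ZBTB25 on the opposite strand, which had 6.53 to 7.87 CPM in controls and 6.52 to 7.73 CPM in knockdowns.

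Deoxynucleotide enzymes moved in both directions: 3 of 9 fell, 1 rose and 5 did not pass. The shares that fell and rose, 33.3% and 11.1%, lay near the 23.5% and 17.5% of all genes tested. RRM1, the large subunit of ribonucleotide reductase, was at 56.8, 64.3 and 63.4 CPM in controls and 41.3, 40.5 and 43.0 CPM in knockdowns, all lower. Its log2 fold change was -0.56 (SE 0.06; limma, adjusted p = 3e-05). RRM2 (ENSG00000171848.9, chromosome 2, 10262455 to 10271545), the S-phase small subunit, was at 18.5, 24.6 and 25.0 CPM in controls and 15.6, 14.3 and 15.9 CPM in knockdowns. Control replicate 1 was the lowest of its group but still above every knockdown library, and the log2 fold change was -0.56 (SE 0.11; limma, adjusted p = 0.0018). DTYMK, which phosphorylates thymidylate, was at 27.5, 28.4 and 30.3 CPM against 18.5, 19.6 and 20.2 CPM. It too was lower in every knockdown library, by a log2 change of -0.56 (SE 0.06, adjusted p = 5.6e-05 in limma). The DTYMK call held in all 20 other fits, with values from -0.59 to -0.38.

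Thymidylate synthase went the other way. TYMS (ENSG00000176890.11, chromosome 18, 657604 to 673578), which makes the thymine nucleotide from dUMP with a folate carbon, was at 9.60, 9.72 and 10.4 CPM in controls and 15.4, 14.9 and 15.0 CPM in knockdowns. All 3 knockdown libraries were higher, with a log2 change of 0.61 (SE 0.07; limma, adjusted p = 6.3e-05). The values rest on 292 to 524 reads per library, and the call and its direction held in all 20 other fits, with values from 0.59 to 0.66. Of its 2470 exon bases in GENCODE 29, 967 (39.1%) also lie in exons of ENOSF1 on the opposite strand, and how the authors' counting assigned reads there is not given in the sources used here. ENOSF1 itself was lower in knockdowns, at 9.29 to 10.4 CPM in controls and 7.34 to 9.05 CPM in knockdowns (log2 fold change -0.27, SE 0.10; limma, adjusted p = 0.042).

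The other deoxynucleotide genes did not pass the threshold. TK1, the S-phase thymidine kinase, was at 8.90, 10.3 and 12.1 CPM in controls and 7.75, 7.64 and 9.51 CPM in knockdowns. Its groups overlapped, since knockdown replicate 3 lay above control replicate 1 (log2 fold change -0.32, SE 0.12; limma, adjusted p = 0.058). The gene TK1 passed without control replicate 1 (adjusted p 0.017), without knockdown replicate 3 (0.032), with thinned reads (0.044) or with the replicate block (0.028), and its value was -0.12 with the GC and length trend removed. SAMHD1, which breaks deoxynucleotides down, was at 36.1, 38.1 and 37.0 CPM in controls and 31.0, 33.5 and 35.9 CPM in knockdowns. All its knockdown libraries were lower, knockdown replicate 3 only just, and it did not pass (log2 fold change -0.15, SE 0.06; limma, adjusted p = 0.078; 0.039 without that library). The mitochondrial thymidine kinase TK2 (-0.06), the dUTPase DUT (-0.03) and the deoxycytidine kinase DCK (-0.03) had log2 fold changes close to 0. DCK shares 29912 bases of its locus with MOB1B on the same strand.

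Beside these genes stand general cell-cycle transcripts. Of 31 proliferation genes (MCM helicase subunits, cyclins, mitotic kinases and the like), 30 were tested, of which 23 fell in limma (76.7%, against 23.5% of all genes) and the other 7 did not pass, with a median log2 fold change of -0.47; CCNE2 had the highest value, 0.29. Their summed level was 566, 684 and 668 CPM in controls and 499, 465 and 502 CPM in knockdowns. Control replicate 1 was lowest of its group, as for RRM2, TK1 and the summed level of all members. Not every role shared this order. The lowest summed control was replicate 2 for purine salvage and for the step from IMP to AMP and GMP. For PRPP supply it was replicate 3, and for the other roles replicate 1. The part of cell cycling in the fall of the enzymes was not tested. Without the deoxynucleotide genes, 21 of the 28 remaining tested members were lower and 1 was higher, with a median of -0.32.

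**Figure D2:**
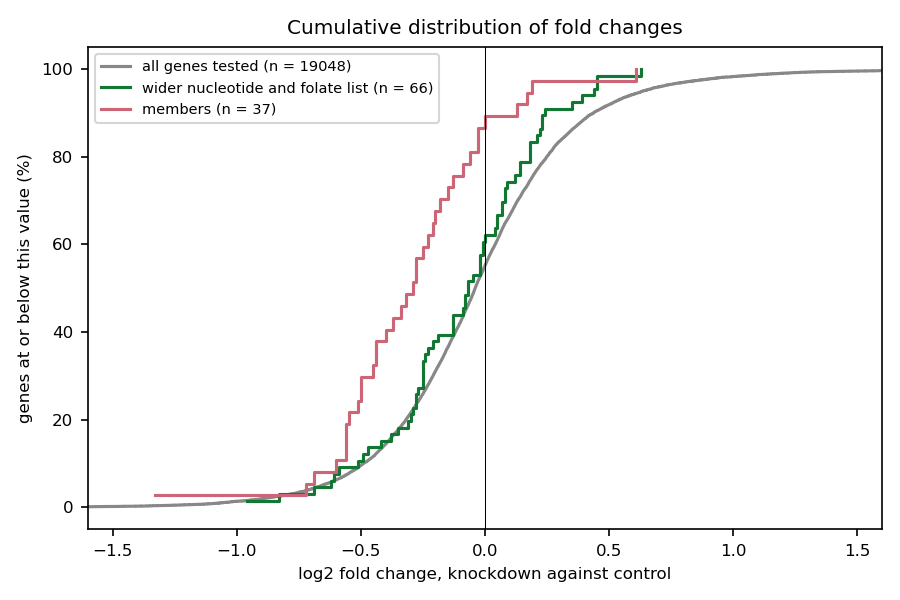
Cumulative share of genes (y axis, percent) at or below each log2 fold change of knockdown against control (x axis) for all 19048 genes tested, the 66 tested genes of the wider nucleotide and folate list, and the 37 tested members. The members' curve lies to the left, with a median of -0.29, while the wider list has a median of -0.07 and all genes one of -0.04.

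Other genes of the same pathways lay nearer to the background. A wider list of 81 genes (further kinases, phosphatases, transporters, catabolic and folate enzymes) had 66 tested, of which 20 fell and 10 rose in limma, or 30.3% and 15.2%, against 23.5% and 17.5% of all genes. The split depended on scaling: with trimmed-mean scaling 16 of the wider list fell and 13 rose, beside 3772 and 3976 of all genes changed, and with quantile normalization also 16 and 13, beside 3894 and 3798. The members' counts were 24 lower and 3 higher under both. The largest falls were in NME3, a further diphosphate kinase (17.6 ± 4.04 to 8.93 ± 1.64 CPM, SD, n = 3; log2 fold change -0.96), and in the equilibrative nucleoside transporters SLC29A2 (3.85 ± 0.837 to 2.14 ± 0.369 CPM; -0.83) and SLC29A1 (11.8 ± 0.898 to 7.65 ± 0.536 CPM; -0.62). Among the rises were XDH, which makes uric acid (5.68 ± 0.531 to 8.78 ± 0.159 CPM, SD, n = 3; log2 fold change 0.63), and GLDC of the glycine cleavage system (2.29 ± 0.175 to 3.15 ± 0.454 CPM; 0.45). For GLDC the call was lost when control 1, control 3, knockdown 2 or knockdown 3 was left out (adjusted p from 0.056 to 0.11 in limma). The stress-inducible reductase subunit RRM2B, which serves DNA repair and mitochondria, was at 121, 119.9 and 115 CPM in controls and 161, 156 and 151.5 CPM in knockdowns. Each knockdown library was higher, with a log2 change of 0.39 (SE 0.04; limma, adjusted p = 4.8e-05).

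Folate genes were grouped by compartment after their values were seen, and therefore without a test. Of 6 cytosolic ones, 3 were lower (MTHFD1, SHMT1 and MTRR) and 3 did not pass in limma. Of 10 mitochondrial ones, 3 were higher (MTHFD2, ALDH1L2 and GLDC), 2 lower (MTFMT and GCSH) and 5 did not pass. Some folate genes were placed in neither group. Among them were TYMS (log2 fold change 0.61, higher), FPGS (-0.49, lower) and DLD (-0.02, did not pass). Of all genes tested, 23.5% were lower and 17.5% higher, and with so few genes no difference between compartments is claimed. MTHFD2, the mitochondrial dehydrogenase and cyclohydrolase, was at 60.9, 73.6 and 68.8 CPM in controls and 80.8, 83.7 and 74.6 CPM in knockdowns. Its groups did not overlap, with a log2 change of 0.24 (SE 0.07; limma, adjusted p = 0.02). That call was lost without control replicate 1 (0.059), without knockdown replicates 1 (0.056) or 2 (0.076), and with untrended eBayes (0.09). SHMT2, which feeds it with one-carbon units, did not pass, at 173.5 ± 7.45 and 163 ± 1.6 CPM (SD, n = 3; log2 fold change -0.09, SE 0.04), but did without control replicate 1 (limma, adjusted p = 0.035).

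**Figure D3:**
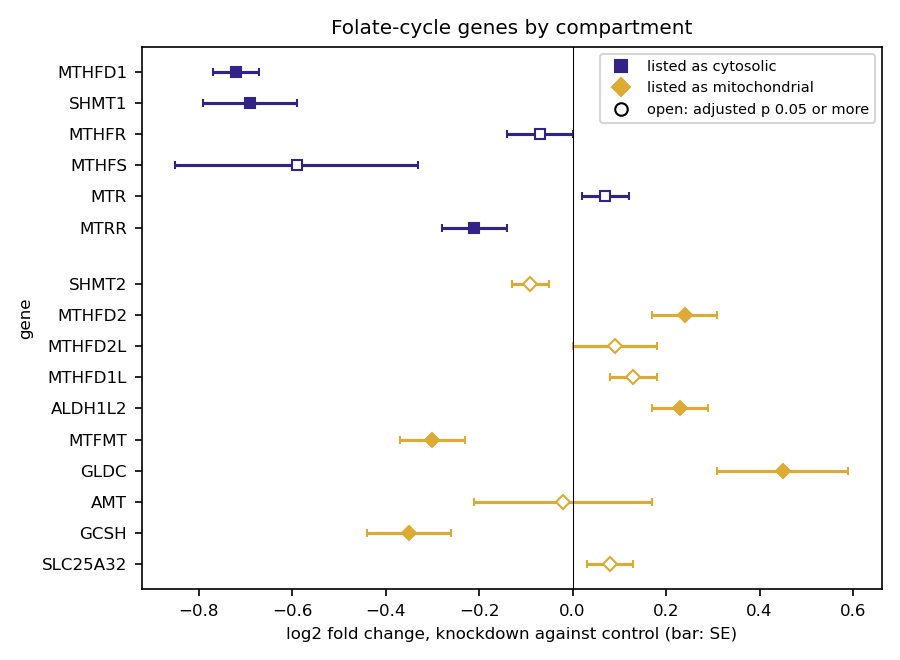
Log2 fold change of knockdown against control (x axis, bars are the SE from limma) for folate-cycle genes (y axis), squares for genes listed as cytosolic and diamonds for mitochondrial ones; filled symbols have an adjusted p under 0.05. MTHFD1 and SHMT1 lie farthest left, at -0.72 and -0.69, and GLDC farthest right, at 0.45; called mitochondrial genes lie on both sides of 0, with MTHFD2 and ALDH1L2 at 0.24 and 0.23 and MTFMT and GCSH at -0.30 and -0.35.

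Whether partner genes moved by unequal amounts was read from the log2 ratio of 2 genes within each library, which does not depend on library scaling. It is a ratio of reads, not corrected for length, and just its change is of use. Of 10 planned pairs 9 could be formed (NME2 had no reads), and in 5 the groups did not overlap. For RRM2 to RRM2B and MTHFD1 to MTHFD1L this followed from the single genes, whose groups lay apart in opposite directions. Each difference is that of the 2 single-gene log2 changes and adds no separate evidence. Among all single genes tested, the knockdown libraries all lay below the controls in 28.5% and all above in 22.6%. The share of other gene pairs with groups apart was not computed, so the count of 5 has no background of its own. IMPDH1 to IMPDH2 went from -0.93 ± 0.10 to -1.81 ± 0.06, a difference of -0.88. MTHFD1 to MTHFD1L went from -0.14 ± 0.04 to -0.99 ± 0.05, a difference of -0.85, and RRM2 to RRM2B from -2.40 ± 0.27 to -3.35 ± 0.09, a difference of -0.95 (SD, n = 3). The ratio of the cytosolic SHMT1 to SHMT2 changed by -0.60, and that of CTPS1 to CTPS2 by -0.22. Each of these 5 had an exact two-sided permutation p of 0.1, the smallest that 3 against 3 libraries allow, and 0.18 after Benjamini-Hochberg adjustment over the 9 pairs, so none could pass 0.05. For RRM2 to RRM1 the ratio stood at -1.45 ± 0.15 and -1.44 ± 0.05 (SD, n = 3), a difference of 0.00 (exact permutation p = 1), which does not show that they moved alike. Groups overlapped for PRPS1 to PRPS2 (-0.04), TK1 to TK2 (-0.26) and HPRT1 to APRT (0.10).

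**Figure D4:**
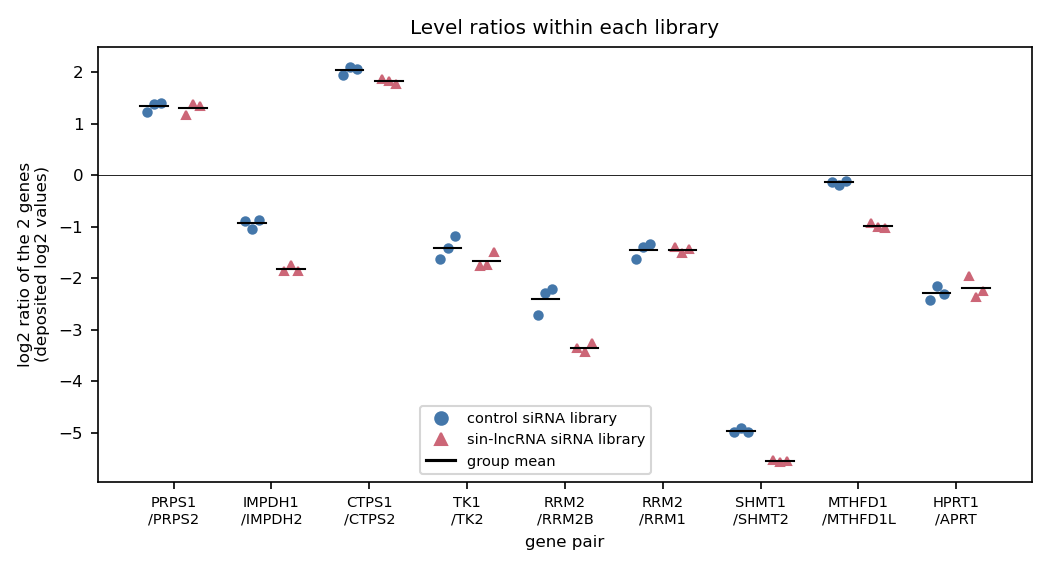
Log2 ratio of the deposited values of 2 genes in each library (y axis) for 9 gene pairs (x axis); circles are control and triangles knockdown libraries, and lines are group means. The groups are apart for IMPDH1/IMPDH2, CTPS1/CTPS2, RRM2/RRM2B, SHMT1/SHMT2 and MTHFD1/MTHFD1L, while RRM2/RRM1 has means of -1.45 and -1.44.

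Promoter sequence was examined because MYC and E2F are known to act on these genes. RefSeq promoters (GRCh38.p14, 250 bases before to 50 after a start) were found for 36 of the 38 genes, ADSS under its present name. No promoter was found for ADSL and IMPDH2, so they were not searched. The E-box CACGTG, which MYC binds and which reads the same on both strands, was in the promoters of 8 of the 36 (22.2%). The share was 12.4% of 11128 tested genes with a promoter and 7.3% of all 35116 promoters. The gene shares count a gene with the word in any of its promoters, whereas the last share counts promoters singly. PPAT and PAICS, which are transcribed away from each other on chromosome 4, hold one and the same E-box, counted for both genes. The sites are shown with the E-box in capitals. Of the 8 genes that carry one, 5 fell (PPAT, PAICS, ATIC, NME1 and MTHFD1). That is near the share of all tested members that fell, 64.9%, and 18 of the 27 tested genes without an E-box fell.
PPAT and PAICS (chr4:56435782-56435807, minus strand): cggagatttcCACGTGcagcaaatac
ATIC (chr2:215312003-215312028, plus strand): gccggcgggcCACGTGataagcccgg
ATIC (chr2:215312078-215312103, plus strand): cctacctgcgCACGTGgtgccgccgc
NME1 (chr17:51153583-51153608, plus strand): tgctgcgaacCACGTGggtcccgggc
MTHFD1 (chr14:64388328-64388353, plus strand): agtccctaagCACGTGggttgggttg
MTHFD1L (chr6:150866322-150866347, plus strand): cgcccggctcCACGTGcgcagccggc
DHODH (chr16:72008575-72008600, plus strand): cgctactgcgCACGTGcacccaacca
DCK (chr4:70993523-70993548, plus strand): ccccggccttCACGTGacctggcgtg

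The 8 genes with an E-box had a median log2 fold change of -0.28, and the 27 tested genes without one had -0.32, with 18 of the 27 lower. IMPDH1, with the largest fall, had none in its window. MYC RNA itself was at 38.1, 38.9 and 40.7 CPM in controls and 25.5, 27.7 and 27.5 CPM in knockdowns. It was lower in every knockdown library, with a log2 change of -0.55 (SE 0.06; limma, adjusted p = 3.3e-05). Its partner MAX had 0.18, a call lost when control 3 (limma, adjusted p = 0.069) or knockdown 2 (0.055) was left out.

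The E2F word was searched as TTTCCCGC, TTTCGCGC, TTTGCCGC or TTTGGCGC on both strands. It was in the promoters of 5 of the 36 genes (13.9%), against 6.5% of the 11128 tested genes and 3.3% of all promoters counted singly. The carriers were PRPS2, GART, TYMS, DUT and DCK, of which GART fell, TYMS rose and the others did not pass. The sites of TYMS and DUT are shown, with the word in capitals, because both act on the dUMP pool and TYMS is the one gene of the set that rose by over 0.5.
TYMS (chr18:657604-657631, plus strand): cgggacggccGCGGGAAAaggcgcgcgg
DUT (chr15:48332145-48332172, plus strand): ggcggggctgGCGGGAAAtttcggtttt
DUT (chr15:48332160-48332187, plus strand): aaatttcggtTTTGGCGCgctccctgcg
The reductase genes RRM1 and RRM2 held no such word in their windows, but a CCAAT box, which was in 16 of the 36 promoters (44.4%) and in 43.0% of the tested genes. The activator E2F1 was at 8.25, 9.06 and 9.66 CPM in controls and 4.26, 4.23 and 4.20 CPM in knockdowns. It was lower by a log2 change of -1.08 (SE 0.09; limma, adjusted p = 8.9e-06), while E2F3 rose from 33.8 ± 0.829 to 52.9 ± 1.5 CPM (SD, n = 3), a log2 change of 0.65. A match of letters is a description, not evidence of binding, and these factors' part in the changes was not tested.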

How the data were processed

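PolyA RNA from 6 libraries (3 control, 3 knockdown) was read as single 50 bp reads, per the labels' protocols. The authors deposited a table of log2 values, which are log2 CPM with an offset of 0.5 reads: undoing the offset gave whole reads (within 0.01) for 100% of values. Bowtie2, featureCounts and hg19 are named, without versions, in the submitters' processing notes; annotation release and strand setting are not given in the sources used here. From the deposited log2 values, limma 3.58.1 (R 4.3.3; lmFit, eBayes with a trend, group as the sole term, two-sided) was fitted to 19048 genes with a mean of at least 10 normalized reads, with Benjamini-Hochberg adjustment over all of them. Fold changes hold the 0.5-read offset and understate changes of low genes. Replicates differed by more than sampling noise in every pair (chi-square per degree of freedom 2.87 to 11.0). Libraries with equal replicate numbers showed no sign of pairing, which 3 libraries per group cannot exclude.

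Members and lists were chosen with earlier results of these data known. Values per library are given for 11 enzymes that commit a route or set its pace and for the 3 largest rises and 5 largest falls among called members (just 2 members rose). In the wider list, the genes named were the 3 largest rises and falls with a mean of at least 50 reads plus RRM2B, SHMT2 and MTHFD2, most by group mean. Some genes that this rule takes in are not reported here. One wider-list name, AK6, matched the table by gene ID, and the marker PECAM1 was not matched. The 20 other fits changed the offset, filter, scaling, variance model, depth (reads thinned to the smallest total), block, libraries or GC and length trend. Exon lengths came from GENCODE 29 by gene ID, and promoter sequences from RefSeq (GRCh38.p14); coordinates of the table and of RefSeq were not mixed.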

Additional observations from a re-analysis of the deposited data

How the results depend on the processing

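Of the 26 members that changed, 23 kept their call and direction in all 20 other fits, 3 (GMPS, CTPS2 and UCK2) lost the call in some, and 0 reversed; 6 members gained a call in some fit. The count of members changed was 23 to 28 with a library left out, 28 with thinned reads and 31 with the GC and length trend removed, a setting chosen after seeing the data. Requiring a log2 change of 0.5 in size left 12 members, 6 genes of the wider list and 2643 of all genes, and an adjusted p under 0.01 left 5195 genes, all by construction. With the replicate number as a block, 26 members (1 higher, 25 lower), 25 of the wider list and 6454 genes changed; UCK2 lost and TK1 gained a call. Correlations of deviations for equal replicate numbers were -0.149, -0.183 and 0.065, and those for unequal numbers ran from -0.076 to 0.204. These values show no sign of pairing by number, but with 3 libraries per group they cannot exclude it. Among pairs of genes, 5 to 7 did not overlap with a library left out and 6 kept one sign in every same-numbered pair.

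Only uncalled members reversed: DHODH was -0.062 with thinned reads and lay between -0.101 and 0.0699 when any library was omitted; DUT was 0.00955 with trimmed-mean scaling and ran from -0.113 to 0.0223; DCK was 0.0167 with trimmed-mean scaling, 0.00301 with quantile normalization and ran from -0.0963 to 0.0447. The cause was not tested. Depth limits ADA and SHMT1 most, with 74 to 137 and 77 to 280 reads per library.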

Other observations

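Other regulators and neighbours of the pathway also differed. ATF4, a known activator of mitochondrial folate genes, rose from 171 ± 4.55 to 205.5 ± 5.57 CPM (SD, n = 3), or 0.26 in log2 (SE 0.04; limma, adjusted p = 0.00054). E2F7, a known repressor of RRM2 in Ras-expressing cells, went from 122 ± 16.0 to 101 ± 7.36 CPM with overlapping groups, a log2 fold change of -0.27 (limma, adjusted p = 0.03), but that call was lost in 8 of the 20 other fits. MTAP, which recycles methylthioadenosine to adenine for APRT, fell from 89.5 ± 4.42 to 64.5 ± 1.03 CPM, a log2 fold change of -0.47 (limma, adjusted p = 3.2e-05), and DCTPP1, a dCTP pyrophosphatase, had -0.51. CMPK1, which phosphorylates UMP and CMP, rose from 136 ± 7.88 to 173 ± 0.853 CPM, a log2 fold change of 0.35, and AMPD3, which deaminates AMP, had 0.44. MTAP, DCTPP1, CMPK1 and AMPD3 were picked after their values were seen.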
